A study of Mus musculus with 21 samples.

Results

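Splenic CD4+ and CD8+ T cells of mice with constitutively active gp130 were compared with each other. The comparison takes the 9 libraries of L-gp130fl/+;CD4Cre+/- mice, 6 from CD4+ and 3 from CD8+ cells, out of 21 libraries in all, and asks which differences between the 2 lineages hold when gp130 is active. The libraries were taken by their labels alone. The other 12 libraries, 6 CD4+ and 6 CD8+, came from CD4Cre+/- mice, which carry the Cre transgene without the L-gp130 allele and serve here as controls. All mice were C57BL/6J at postnatal day 35. Cre under the Cd4 promoter acts in thymocytes before the lineages part, so the allele is switched on in both. Of the L-gp130 libraries, 4 of 6 CD4+ and 2 of 3 CD8+ ones came from males by label, against 1 of 6 and 4 of 6 in controls. CD4+ cells were taken by positive selection with magnetic beads and CD8+ cells by negative enrichment, so that the way of selection and the cell type cannot be told apart in any value below.

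The choice between the helper and the cytotoxic lineage is made in the thymus. The factor ThPOK, encoded by Zbtb7b, holds cells in the CD4 lineage and keeps cytotoxic genes off, while Runx3 silences Cd4 and promotes Cd8a and cytotoxic genes. Several cytokine receptors, those of interleukin-6, interleukin-11, oncostatin M and leukaemia inhibitory factor among them, use gp130 as their common chain, and it acts through JAK kinases and STAT3. Il6st encodes it. Interleukin-6 signalling is best known in CD4+ T cells, where it favours TH17 and follicular helper cells over regulatory T cells. CD8+ T cells also carry gp130.

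The reads of each of the 9 libraries summed to 17803348 to 21250567 in CD4+ and 17237661 to 19498293 in CD8+ cells. Control CD8+ libraries held 17737131 to 19311661 reads and control CD4+ libraries 27894037 to 35913566, so depth went with cell type in the controls and not in the L-gp130 mice. The first principal component, with 65.2% of the variance, separated the 2 cell types in the 9 libraries. The second (9.32%) set L-gp130 CD4 replicate 1 (73.3) apart from the other 5 CD4 libraries (-36.6 to -1.30). Reads of sex-linked genes matched the labelled sex in all 9 L-gp130 libraries and in 11 of the 12 controls. Control CD8 replicates 1 to 3 and 4 to 6 stood apart from each other, with Fos, an immediate early gene, at 458, 373 and 526 against 201, 75.6 and 179 CPM, that is reads scaled to a common library size. The labels give each library a mouse number within its group and do not say whether CD4+ and CD8+ cells came from the same mouse. Adjusted p-values therefore measure the spread between these samples.

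Lineage and selection gave large differences under active gp130. Of 15030 genes tested, 5813 (38.7%) passed edgeR's quasi-likelihood test with Benjamini-Hochberg adjustment at an adjusted p under 0.05. Of these, 2915 (19.4%) were higher in CD4 and 2898 (19.3%) higher in CD8 cells, and 2404 (16.0%) differed at least 2-fold. For 5773 genes (38.4%) the CPM of the 6 CD4 and the 3 CD8 libraries did not overlap. Both counts fell when 1 of the 3 CD8 libraries was left out. Without CD8 replicates 1, 2 and 3 in turn, 2319, 2127 and 2184 genes were higher in CD4 and 1982, 1819 and 1747 higher in CD8 cells. Below, a gene is called higher only where it passed this test. Log2 fold changes are CD4 over CD8 with the SE of the fit, and levels are normalised CPM.

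The coreceptor genes checked the labels. Cd4 (ENSMUSG00000023274, chromosome 6, 124864692 to 124888221, GRCm38), the coreceptor for MHC class II, stood at 520.01, 785, 769, 723, 744 and 748 CPM in CD4 replicates 1 to 6. In the CD8 libraries it stood at 11.9, 10.8 and 12.2 CPM, which is log2 5.92 ± 0.17 (SE, edgeR adjusted p = 1.62e-07). All 6 CD4 libraries lay far above all 3 CD8 libraries, with replicate 1 the lowest of the 6. Zbtb7b (ENSMUSG00000028042, chromosome 3, 89377644 to 89394776), the gene of ThPOK, measured 143, 194, 170.1, 183, 177 and 172 CPM in CD4 and 26.7, 31.1 and 33.6 CPM in CD8 libraries (log2 2.49 ± 0.11, edgeR adjusted p = 7.69e-07). Here too the groups did not overlap.

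The CD8 coreceptor chains ran the other way. Cd8a (ENSMUSG00000053977, chromosome 6, 71373427 to 71379173), the alpha chain of the coreceptor for MHC class I, stood at 817, 902 and 956 CPM in CD8 libraries. In CD4 replicates 1 to 6 it stood at 92.3, 14.3, 18.8, 28.7, 27.6 and 26.6 CPM (log2 -4.80 ± 0.54, edgeR adjusted p = 0.000421). The groups were far apart, but CD4 replicate 1 held more than 3 times as much Cd8a as any other CD4 library. Cd8b1 (ENSMUSG00000053044, chromosome 6, 71322788 to 71337494), the beta chain, ranged from 17.5 to 33.5 CPM (median 21.96) in CD4 libraries. Its CD8 values were 591, 715 and 718 CPM (log2 -4.88 ± 0.19, edgeR adjusted p = 7.69e-07), with no overlap. The plot of the 4 marker genes shows them for all 21 libraries.

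**Figure D1:**
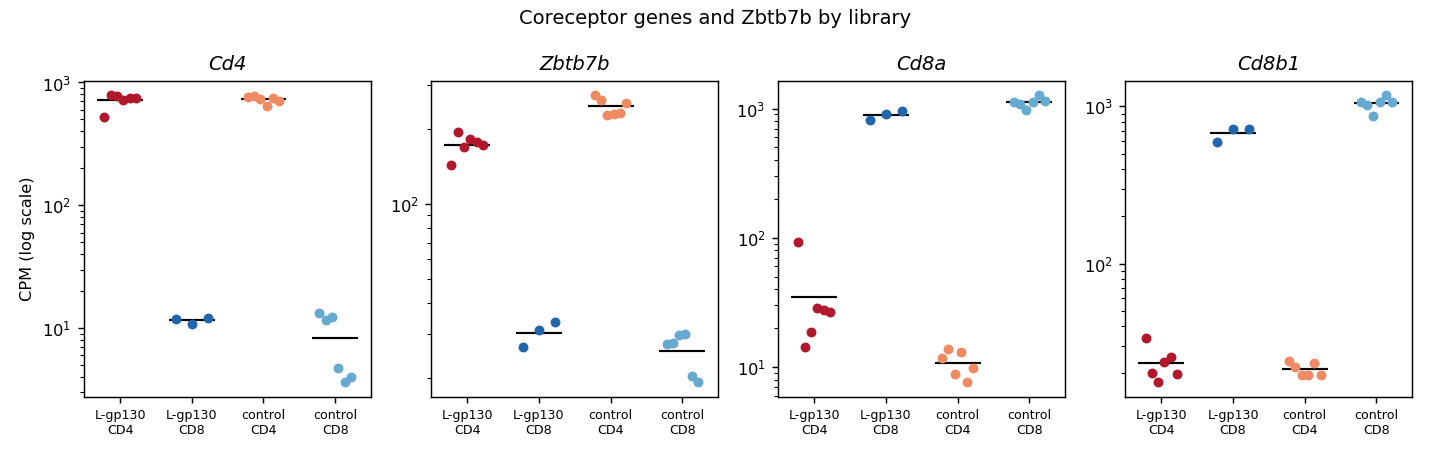
Levels of Cd4, Zbtb7b, Cd8a and Cd8b1 in CPM on a log scale (vertical axis), 1 point per library, in L-gp130 CD4 (6 libraries), L-gp130 CD8 (3), control CD4 (6) and control CD8 (6); horizontal lines are group means. In every panel the CD4 and CD8 libraries of a genotype are fully apart, L-gp130 CD4 replicate 1 is high for Cd8a at 92.3 CPM, and control CD8 replicates 1 to 3 lie above replicates 4 to 6 for Cd4.

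Per length, as deposited TPM, a length-corrected level, Cd4 averaged 349.9 ± 57.9 (SD, n = 6) in CD4 and 4.41 ± 0.351 (n = 3) in CD8 libraries. Cd8a averaged 18.1 ± 13.5 and 423.9 ± 33.2 TPM. Of the summed TPM of Cd4 and Cd8a, Cd4 made up 84.1% in CD4 replicate 1, 95.9% to 98.0% in the other 5 CD4 libraries and 0.965% to 1.13% in the CD8 libraries. The share was 97.9% to 98.9% in control CD4 libraries, above all 6 L-gp130 CD4 libraries except replicate 2, which lay among them. Cd8a itself ranged from 7.94 to 45.0 TPM in L-gp130 CD4 libraries and from 4.29 to 7.70 in control CD4 libraries. In such bulk samples, a change in the number of cells of a type and a change in RNA per cell cannot be told apart.

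Of 20 coreceptor and lineage genes, all tested, 5 were higher in CD4, 6 were higher in CD8 and 9 did not pass the test. Their median log2 fold change was 0.10, against -0.005 over all genes tested. Of all genes tested, 19.4% were higher in CD4 and 19.3% higher in CD8 cells, the base for this and each list below. Runx3 (ENSMUSG00000070691, chromosome 4, 135120652 to 135177990) was higher in CD8 cells, at 167, 178 and 197 CPM against 86.6 to 112 CPM (median 98.4) in CD4 cells (log2 -0.91 ± 0.09, edgeR adjusted p = 0.0001). Runx1, its relative, was higher in CD4 cells, at 99.3 to 127 CPM (median 117) against 58.4, 54.1 and 64.0 CPM (log2 0.96 ± 0.07, edgeR adjusted p = 1.85e-05). Both genes had no overlap of the groups. Nr4a1, a nuclear receptor induced by T cell receptor signals, was higher in CD8 cells (log2 -1.78 ± 0.11). Like Fos, it split the control CD8 libraries, at 262, 232 and 304 CPM in replicates 1 to 3 and 82.9, 53.1 and 87.2 CPM in replicates 4 to 6. The latter overlapped control CD4 libraries (60.1 to 76.3 CPM), and the cause of the split was not tested. Tox, a factor needed for CD4 lineage development in the thymus, was higher in CD4 cells (log2 1.02 ± 0.21). Gata3, which acts ahead of Zbtb7b, stood at 43.1 to 52.5 CPM in CD4 and 40.4 to 41.9 CPM in CD8 cells and did not pass the test (log2 0.18 ± 0.08, edgeR adjusted p = 0.12). Tcf7, Lef1, Satb1 and Ikzf1, T cell factors shared by both lineages, did not pass it either, with adjusted p from 0.538 to 0.856 in edgeR's test.

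Runx3 and Zbtb7b are each read from more than 1 promoter, and the share of the transcripts differed between the lineages. The Runx3 transcript that starts at the distal promoter (Runx3-201, start 135120652) is the form tied to CD8 cells. It averaged 26.7 ± 3.44 TPM (SD, n = 6) in CD4 and 41.4 ± 4.43 TPM (n = 3) in CD8 libraries. The proximal transcript (Runx3-202, start 135152496) averaged 7.75 ± 1.84 and 5.63 ± 0.668 TPM. The distal form made up 74.5% to 81.2% of the 2 in CD4 and 86.0% to 89.2% in CD8 libraries, with no overlap. The mean difference was -10.3 percentage points (2-sided exact permutation test, p = 0.0238, the smallest that 84 arrangements allow). In controls the ranges were 72.5% to 77.0% and 85.2% to 91.3%.

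For Zbtb7b, the longer transcript Zbtb7b-201 made up 21.3% to 33.3% of the sum with Zbtb7b-203 in CD4 and 49.6% to 58.8% in CD8 libraries. The mean difference was -24.9 percentage points (2-sided exact permutation test, p = 0.0238, the smallest possible; 0.0238 also after Benjamini-Hochberg adjustment over the 2 genes). The share is of a smaller amount in CD8 cells, where the transcripts averaged 3.87 ± 0.220 and 3.48 ± 0.551 TPM, against 17.5 ± 3.80 and 45.2 ± 6.34 TPM in CD4 cells. These transcript values are Salmon's estimates from reads that the transcripts partly share, and no error of the split was available. Salmon's effective lengths imply a fragment length that went with cell type. It was 239 to 265 bases in CD4 and 297 to 299 bases in CD8 libraries. In controls it was 229 to 267 and 277 to 295 bases. Its part in the transcript shares was not tested.

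The promoter windows of both genes are shown as the sequence around their annotated starts, and their part in the transcript shares was not tested. Each runs from 250 bases before to 50 bases after a start site in RefSeq's annotation of GRCm38.p6, 5′ to 3′ on the gene's strand. Capitals mark matches of the Runx core motif TGTGGT, searched on both strands, so that a match on the other strand reads ACCACA. The windows are Runx3 distal at chr4:135120395-135120694 and proximal at chr4:135152295-135152594 on the plus strand, and Zbtb7b upstream at chr3:89393329-89393628 and downstream at chr3:89387622-89387921 on the minus strand.
Runx3 distal: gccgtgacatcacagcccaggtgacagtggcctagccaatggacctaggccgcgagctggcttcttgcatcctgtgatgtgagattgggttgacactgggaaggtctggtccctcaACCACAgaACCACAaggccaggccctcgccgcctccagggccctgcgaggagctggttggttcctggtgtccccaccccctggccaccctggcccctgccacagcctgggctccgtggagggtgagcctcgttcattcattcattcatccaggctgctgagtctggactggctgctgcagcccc
Runx3 proximal: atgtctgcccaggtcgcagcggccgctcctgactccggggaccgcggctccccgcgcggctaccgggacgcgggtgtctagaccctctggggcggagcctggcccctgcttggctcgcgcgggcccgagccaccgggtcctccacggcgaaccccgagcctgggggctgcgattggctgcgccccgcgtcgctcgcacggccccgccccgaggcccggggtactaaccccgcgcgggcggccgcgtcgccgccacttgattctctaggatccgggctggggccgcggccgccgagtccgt
Zbtb7b upstream: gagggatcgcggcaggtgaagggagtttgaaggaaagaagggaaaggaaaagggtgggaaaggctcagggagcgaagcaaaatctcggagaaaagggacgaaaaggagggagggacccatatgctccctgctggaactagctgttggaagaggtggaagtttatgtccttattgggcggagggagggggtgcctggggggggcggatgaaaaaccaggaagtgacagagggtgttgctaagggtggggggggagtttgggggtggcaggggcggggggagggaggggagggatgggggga
Zbtb7b downstream: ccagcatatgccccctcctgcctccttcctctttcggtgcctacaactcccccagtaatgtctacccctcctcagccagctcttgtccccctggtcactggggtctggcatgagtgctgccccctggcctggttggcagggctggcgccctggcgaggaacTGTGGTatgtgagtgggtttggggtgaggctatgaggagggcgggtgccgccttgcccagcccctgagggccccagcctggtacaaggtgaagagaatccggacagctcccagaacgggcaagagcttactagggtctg
The distal Runx3 window holds 2 matches and the proximal window 0, while the Zbtb7b windows hold 0 and 1. The downstream Zbtb7b window belongs to a RefSeq start upstream of that of Zbtb7b-203 (89387189). Over all 32851 promoter windows in the table, 16.8% hold the motif, and over the 13864 windows of genes tested, 13.5% do. The share was 15.4% among 1621 windows of genes at least 2-fold higher in CD4 cells and 17.7% among 549 windows of genes at least 2-fold higher in CD8 cells. The STAT motif TTCNNNGAA was in 8.30% of all windows, 6.90% of those of genes tested, 6.35% of the CD4 set and 7.29% of the CD8 set.

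Helper effector genes were mostly higher in CD4 cells. Of 26 genes, 24 were tested, of which 15 were higher in CD4, 1 was higher in CD8 and 8 did not pass the test, with a median log2 fold change of 1.12. Tnfrsf4, which encodes the costimulatory receptor OX40, stood at 48.4 to 68.4 CPM (median 54.6) in CD4 and at 5.50, 5.40 and 6.64 CPM in CD8 libraries (log2 3.28 ± 0.16, edgeR adjusted p = 2.06e-06). Cd40lg, through which helper cells license B cells and dendritic cells, stood at 31.2 to 42.2 CPM (median 37.7) against 3.91, 5.19 and 3.35 CPM (log2 3.12 ± 0.18). Maf, a transcription factor of interleukin-producing helper cells, stood at 160.4 to 230.4 CPM (median 193) against 33.8, 38.9 and 24.9 CPM (log2 2.58 ± 0.16). None of the 3 overlapped between the groups. Further list members named here and below were chosen after their values were seen.

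Among cytokines and their receptors, Il21, made by follicular helper and TH17 cells, stood at 15.96 to 25.9 CPM in CD4 and 0.359 to 2.11 CPM in CD8 cells (log2 3.84 ± 0.42, edgeR adjusted p = 0.000221). Il2, the T cell growth factor, was low in both, at 1.94 to 3.76 against 0.428 to 0.740 CPM (log2 2.07 ± 0.34, edgeR adjusted p = 0.00138). Il1r1, the interleukin-1 receptor of TH17 cells, was higher in CD4 cells, at 17.1 to 43.7 against 8.40 to 13.8 CPM (log2 1.56 ± 0.20). Il17a, the name-giving cytokine of TH17 cells, was the 1 member higher in CD8 cells, at 0.581, 1.23 and 1.44 CPM against 0.0538 to 0.528 CPM (median 0.180) in CD4 cells. It differed by log2 -2.32 ± 0.58 (edgeR adjusted p = 0.0111), at levels near the floor of the data, and it did not pass without CD8 replicate 2, without CD8 replicate 3 or in males alone. Gamma-delta T cells can make interleukin-17A. Their markers summed to 40.8 to 121 CPM (median 51.2) in CD4 and 74.9 to 93.4 CPM in CD8 libraries. CD4 replicate 1 had the highest sum, and the other CD4 libraries reached at most 66.0 CPM. Of 6 markers tested, 1 was higher in CD4 and 2 were higher in CD8. Blk averaged 20.1 CPM in CD4 and 5.61 CPM in CD8 libraries. Tcrg-C1 averaged 8.12 and 18.7 CPM, a call lost in 9 of 19 alternatives. The part of these cells in the result was not tested. Il22 and Il23r, other TH17 genes, did not pass the test, with log2 values of 0.31 and 0.95.

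Of the 12 function lists, the follicular helper genes had the highest median. Of 14 genes, 13 were higher in CD4 and 0 were higher in CD8, with a median log2 fold change of 2.39, and 13 had no overlap of the groups. Over all genes tested, 19.4% were higher in CD4 and 38.4% had no overlap. Izumo1r, which encodes folate receptor 4, stood at 176 to 316 CPM (median 297) in CD4 and 36.7, 42.3 and 28.8 CPM in CD8 libraries (log2 2.95 ± 0.23, edgeR adjusted p = 3.05e-05). Icos, the costimulatory receptor that follicular helper cells depend on, stood at 207 to 254 CPM (median 249) against 93.8, 95.3 and 96.8 CPM (log2 1.31 ± 0.09). Cd200, a surface glycoprotein, stood at 29.7 to 50.3 CPM (median 43.7) against 6.98, 9.52 and 7.06 CPM (log2 2.41 ± 0.19). Each gene was higher in every CD4 library than in any CD8 library. Cxcr5, the receptor that leads cells into B cell follicles, reached a log2 fold change of 2.37 ± 0.26, Bcl6, the master repressor of the subset, 0.94 ± 0.14, and Pdcd1, which encodes PD-1, 1.25 ± 0.15. Slamf6 was the member that did not pass (log2 0.29 ± 0.14, edgeR adjusted p = 0.135).

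Beside these lists, transcripts of B cells were also higher in CD4 libraries. All 12 B cell markers were higher there, summing to 310.4 to 739 CPM (median 391) against 64.8 to 88.7 CPM. Their part in the results on helper and follicular helper genes was not tested.

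Of 14 regulatory T cell genes, 12 were higher in CD4 and 1 was higher in CD8, with a median log2 fold change of 1.69. Foxp3, the factor that defines these cells, stood at 63.4 to 106 CPM (median 86.3) in CD4 and 5.86, 6.45 and 8.24 CPM in CD8 libraries (log2 3.65 ± 0.24, edgeR adjusted p = 1.36e-05). Lrrc32, which presents latent TGF-beta on their surface, stood at 36.7 to 62.2 CPM (median 50.4) against 2.54, 2.51 and 2.75 CPM (log2 4.25 ± 0.21). Il2ra, the high-affinity interleukin-2 receptor chain CD25, stood at 71.0 to 108 CPM (median 83.4) against 16.1, 17.4 and 19.3 CPM (log2 2.29 ± 0.14), and Nrp1, a semaphorin receptor, reached 1.96 ± 0.14. For these genes all CD4 libraries were above all CD8 libraries. Itgae, the integrin chain CD103, was the member higher in CD8 cells, and Ikzf2, the gene of Helios, did not pass the test (log2 0.39 ± 0.27, edgeR adjusted p = 0.279).

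Cytotoxic and type 1 genes were mostly higher in CD8 cells, with 20 of 30 higher in CD8, 1 higher in CD4 and 9 not past the test, and a median log2 fold change of -1.62. Klrd1, which encodes CD94, the partner of NKG2 receptors, stood at 118, 143 and 184 CPM in CD8 and 8.13 to 11.4 CPM (median 10.2) in CD4 libraries (log2 -3.88 ± 0.14, edgeR adjusted p = 4.07e-07). Klrc2, an activating NKG2 receptor whose reads may be shared with its close relatives, stood at 20.03, 19.7 and 25.1 CPM against 0.965 to 1.77 CPM (log2 -3.99 ± 0.19). Prf1, the pore-forming protein of cytotoxic granules, stood at 83.9 to 115 CPM against 26.7 to 36.2 CPM (log2 -1.68 ± 0.11). All CD8 libraries lay above all CD4 libraries for these 3 genes. Eomes, a T-box factor of cytotoxic memory cells, reached -3.39 ± 0.21, and Gzma, a granule protease, -3.34 ± 0.39.

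The hallmark type 1 genes Gzmb, Ifng and Cxcr3 did not pass the test. Gzmb, the main granule protease, stood at 118 to 469.7 CPM (median 145) in CD4 and 293, 367 and 557 CPM in CD8 libraries (log2 -1.16 ± 0.50, edgeR adjusted p = 0.106). Ifng, the gene of interferon gamma, stood at 4.72 to 102 CPM (median 5.78) against 20.4, 20.98 and 31.9 CPM (log2 -0.65 ± 1.23, edgeR adjusted p = 0.708). In both, the highest CD4 library lay within or above the CD8 range. Without CD4 replicate 1, 24 of the 30 genes were higher in CD8 and 2 were higher in CD4. Summed NK cell markers, of which 4 of 9 are also on the cytotoxic list, stood at 823 to 1002 CPM in CD8 and 112 to 374 CPM (median 161) in CD4 libraries, with the highest CD4 value in replicate 1. NK cells and cytotoxic T cells share these transcripts, and their part was not tested.

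**Figure D2:**
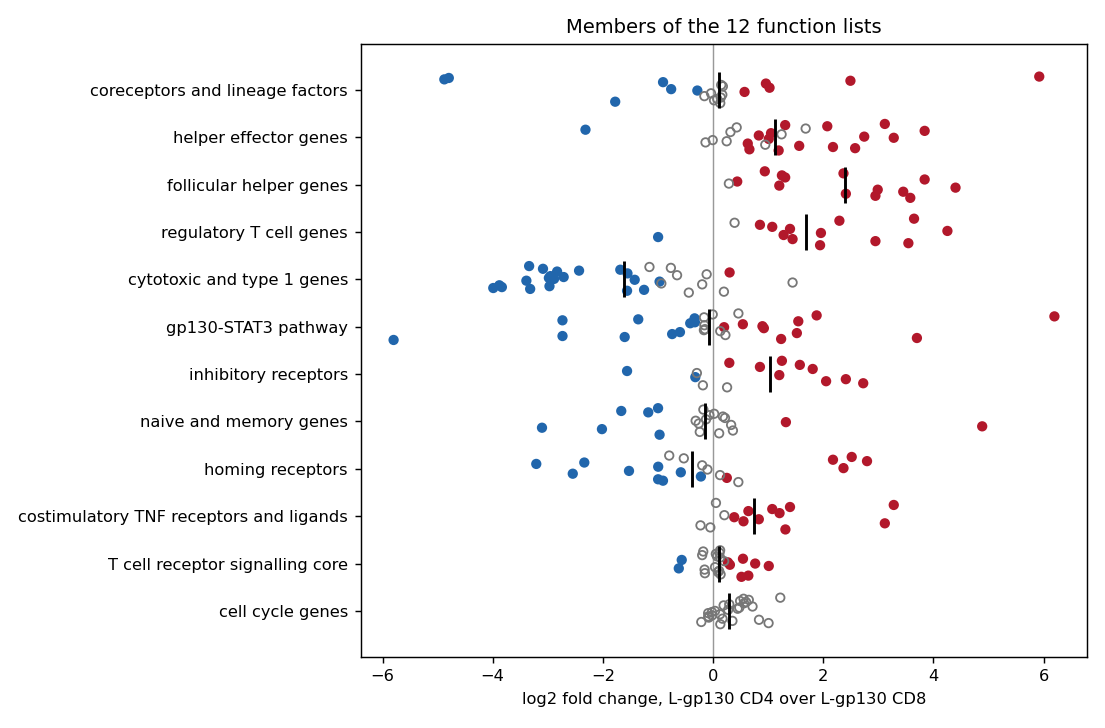
Log2 fold changes of CD4 over CD8 in L-gp130 libraries (horizontal axis) for each tested member of the 12 function lists (rows); red points passed edgeR's test higher in CD4, blue points passed it higher in CD8, open points did not pass, and black bars are list medians. The follicular helper list has 13 of 14 members higher in CD4, the cytotoxic list 20 of 30 higher in CD8, and no cell cycle gene passed.

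In the pathway of gp130 itself, 28 of 30 genes were tested, of which 10 were higher in CD4, 10 were higher in CD8 and 8 did not pass, with a median log2 fold change of -0.08. Il6st (ENSMUSG00000021756, chromosome 13, 112464070 to 112510086), the gene of gp130, stood at 139.8, 334, 278, 306, 280.2 and 294 CPM in CD4 replicates 1 to 6 and 205, 185 and 191 CPM in CD8 libraries. It did not pass the test (log2 0.46 ± 0.23, edgeR adjusted p = 0.142). Of the CD4 libraries, 5 were above all CD8 libraries and replicate 1 was below them. Without replicate 1 the log2 fold change was 0.60 and passed (edgeR adjusted p = 0.000260). How reads of the L-gp130 allele are counted was not tested. Il6ra, the interleukin-6 receptor chain, did not pass either (log2 -0.01 ± 0.19, edgeR adjusted p = 0.982).

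The receptor chains Lifr and Osmr, which pair with gp130 for other cytokines, were low but higher in CD4 cells. Cntfr, another such chain, was not tested, with means of 0.0920 CPM in CD4 and 0.124 CPM in CD8 libraries. Lifr, the leukaemia inhibitory factor receptor, stood at 6.98 to 14.9 CPM in CD4 and 1.96 to 4.37 CPM in CD8 libraries (log2 1.88 ± 0.37, edgeR adjusted p = 0.00378). Osmr, the oncostatin M receptor, stood at 1.34 to 2.53 CPM in CD4 libraries, with 218 reads in all, while the 3 CD8 libraries held 1 read. That is a ratio of 104 with a 95% interval of 18.4 to 4111, which covers counting error only. Both receptors are also made by stromal cells. The summed stroma markers stood at 173 to 229.9 CPM in CD4 and 80.5 to 81.8 CPM in CD8 libraries, where 2 of 8 members were at 0 in all 3. Most of the sum was 1 member, Pecam1, at 129.95 to 179.5 CPM in CD4 and 76.2 to 78.8 CPM in CD8 libraries. Cdh5 and Kdr, other members, averaged 18.2 and 13.6 CPM in CD4 and 1.29 and 0.355 CPM in CD8 libraries. The part of stromal cells was not tested. Lif, a gp130 cytokine, was higher in CD4 cells (log2 1.55 ± 0.31), and Clcf1, another, higher in CD8 cells (log2 -1.36 ± 0.19).

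Downstream, Stat3 and Socs3 leaned opposite ways by small amounts. Stat3 (ENSMUSG00000004040, chromosome 11, 100885098 to 100939540), the main transcription factor below gp130, stood at 372, 417, 362, 372, 408 and 381 CPM in CD4 and 318, 332 and 346 CPM in CD8 libraries. The groups did not overlap, at log2 0.20 ± 0.07 (edgeR adjusted p = 0.0415), and 9 of 20 alternatives lost the call, with adjusted p up to 0.136. Its end overlaps Stat5a on the other strand, and the reads, which carry no strand, cannot be told apart there. Socs3 (ENSMUSG00000053113, chromosome 11, 117966079 to 117970047), the feedback inhibitor of gp130, stood at 253, 417, 355, 382, 389 and 330.2 CPM in CD4 and 487, 566 and 539.6 CPM in CD8 libraries (log2 -0.60 ± 0.14, edgeR adjusted p = 0.00736). All 3 CD8 libraries were above all CD4 libraries, but without CD8 replicate 2 the call was lost (edgeR adjusted p = 0.0552). Control means were 252 and 223 CPM for Stat3 and 121 and 146 CPM for Socs3.

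Other members of the pathway were called as well. Hif1a, a hypoxia factor that supports TH17 cells, stood at 209.7 to 280.4 CPM (median 244) in CD4 and 96.5, 108 and 106 CPM in CD8 libraries (log2 1.24 ± 0.10, edgeR adjusted p = 2.84e-05). Ptpn11, the phosphatase SHP2 that binds gp130, reached 0.92 ± 0.11 and Jak2 0.54 ± 0.08, both higher in every CD4 library. Fos and Junb, AP-1 factors, and Myc, a driver of growth, were higher in CD8 cells. Fos stood at 614, 541 and 630.3 CPM against 9.04 to 13.9 CPM (median 9.95) in CD4 cells (log2 -5.80 ± 0.14, edgeR adjusted p = 1e-07), Junb at 1414, 1487 and 1676 against 188 to 269 CPM (log2 -2.73 ± 0.10) and Myc at 239, 288 and 261 against 81.9 to 97.9 CPM (log2 -1.60 ± 0.08). The groups did not overlap. Fos and Junb are also immediate early genes, which cell handling can switch on. That list summed to 4342 to 4938 CPM in CD8 and 842 to 1053 CPM in CD4 libraries, with 9 of 13 members higher in CD8 and 2 higher in CD4. In control CD8 libraries Myc stood at 207, 210 and 232 CPM in replicates 1 to 3 and 150, 127 and 151 CPM in replicates 4 to 6. The 2 ways of selection go with the cell types, so handling and lineage cannot be told apart here.

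Of 14 inhibitory receptors, 9 were higher in CD4 and 2 were higher in CD8, with a median log2 fold change of 1.03. Tigit, a receptor that competes with CD226, stood at 42.9 to 65.7 CPM (median 59.4) in CD4 and 15.96, 16.5 and 26.5 CPM in CD8 libraries (log2 1.57 ± 0.13, edgeR adjusted p = 3.68e-05). Cd200r1, the receptor of CD200, reached 2.05 ± 0.16, and Havcr2, which encodes TIM-3, 1.81 ± 0.17. Cd160, shared by NK and CD8+ T cells, was higher in CD8 cells, at 110.3, 96.7 and 112 against 30.2 to 40.5 CPM (log2 -1.56 ± 0.09). Vsir, the gene of VISTA, was higher there by a small margin (log2 -0.32 ± 0.07, edgeR adjusted p = 0.00681), a call lost without CD8 replicate 2 and in males alone. For the first 4 of these genes the groups were fully apart by wide margins.

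Of 14 costimulatory TNF family members tested, out of 15, 10 were higher in CD4 and 0 were higher in CD8 (median 0.74). Tnfrsf18, which encodes GITR, stood at 49.1 to 58.2 CPM (median 54.1) in CD4 and 24.4, 25.5 and 25.9 CPM in CD8 libraries (log2 1.07 ± 0.08, edgeR adjusted p = 1.77e-05). Tnfrsf9, which encodes 4-1BB, reached 1.40 ± 0.11. Of 23 genes of the T cell receptor signalling core, 7 were higher in CD4, 2 were higher in CD8 and 14 did not pass, and the median was 0.12. The total called was near the 38.7% called over all genes tested. The adaptor Lcp2 (log2 0.54 ± 0.07), the inhibitory coreceptor Cd5 (0.76 ± 0.10) and the factor Nfatc2 (0.51 ± 0.07) were higher in CD4 cells, and Thy1 (-0.62 ± 0.11), a surface glycoprotein, was higher in CD8 cells. Cd3e, Cd3d and Cd3g, which mark all T cells, did not pass, with log2 values of 0.13, -0.18 and 0.12.

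Of 20 naive and memory genes, 2 were higher in CD4, 6 were higher in CD8 and 12 did not pass, with a median of -0.15. The total called was again near the 38.7% over all genes tested. Il7r, the survival receptor of resting T cells, stood at 138 to 350.4 CPM (median 172) in CD4 and 494, 618 and 737 CPM in CD8 libraries (log2 -1.67 ± 0.20, edgeR adjusted p = 0.000382). Klf2, a regulator of T cell traffic, stood at 289 to 365 CPM (median 334) against 686, 769 and 751 CPM (log2 -1.18 ± 0.09), and Cd69, an early activation marker that holds cells in tissue, at 51.9 to 102 CPM against 296, 298 and 307 CPM (log2 -2.02 ± 0.18). All 3 CD8 libraries lay above all 6 CD4 libraries for each. In control CD8 libraries Cd69 stood at 195, 244 and 310 CPM in replicates 1 to 3 and 165, 87.2 and 156 CPM in replicates 4 to 6. Ccr7, the lymph node homing receptor of naive cells, did not pass (log2 -0.18 ± 0.25, edgeR adjusted p = 0.612). Ly6c1 was higher in CD4 (log2 4.88 ± 0.34) and Ly6c2 higher in CD8 cells (-3.11 ± 0.76). These 2 genes are near-identical, so the split of their reads is uncertain. Igfbp4 was higher in CD4 cells (log2 1.32 ± 0.39, edgeR adjusted p = 0.0307), with overlap, and 9 of 20 alternatives lost the call.

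Of 20 homing receptors, 5 were higher in CD4 and 9 were higher in CD8 (median -0.38). Ccr4, the skin and TH2 homing receptor, stood at 36.7 to 52.6 CPM (median 46.1) in CD4 and 6.82, 9.04 and 7.42 CPM in CD8 libraries (log2 2.52 ± 0.17, edgeR adjusted p = 9.82e-06), and Ccr6, a TH17 homing receptor, reached 2.18 ± 0.16. Ccr9, the small intestine homing receptor, ran the other way, at 38.3, 48.6 and 53.2 CPM in CD8 against 7.67 to 12.6 CPM (median 9.08) in CD4 libraries (log2 -2.34 ± 0.13, edgeR adjusted p = 4.84e-06). Selplg, the selectin ligand PSGL-1, was higher in CD8 cells too (log2 -0.91 ± 0.09). No overlap was seen for these 4.

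Of 25 cell cycle genes, 0 passed edgeR's test in either direction, and 0 passed without CD4 replicate 1. Their median log2 fold change was 0.29, and 1 gene, Mki67, had an unadjusted p under 0.05 (0.0297). DESeq2 called 3 of the 25 higher in CD4, and limma-voom 0. Mki67, the proliferation antigen, stood at 149 to 799.9 CPM (median 316) in CD4 and 107 to 172 CPM in CD8 libraries (log2 1.22 ± 0.46, edgeR adjusted p = 0.0692). The CD4 range overlapped the upper end of the CD8 range.

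The largest differences outside the lists were in genes with no read in 1 of the cell types. Ccn2, a matricellular protein, Sorbs2, an actin adaptor, Tm4sf1, a tetraspan-like surface protein, Efhd1, a mitochondrial calcium-binding protein, Crispld1 and Tcim had 605 to 1159 reads over the 6 CD4 libraries and 0 over the 3 CD8 libraries. Against a floor of 3 reads over the CD8 group they were at least 184-fold (Ccn2), 164-fold (Sorbs2), 136-fold (Tm4sf1), 109.8-fold (Efhd1), 103-fold (Crispld1) and 95.8-fold (Tcim) higher in CD4 libraries. Control means were 7.22 to 12.5 CPM in CD4 and at most 0.0581 CPM in CD8 libraries. Several of these genes are known from endothelial and stromal cells, and all 7 tested stroma markers were higher in CD4 libraries, with the endothelial receptor Kdr at 8.99 to 19.3 CPM against 0.106 to 0.481 CPM. Their part was not tested.

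The ribosomal pseudogenes Rpl15-ps3, Rpl27-ps3, Rpl10a-ps1 and Rps13-ps2 had the highest fitted fold changes among the named genes, with 0 reads in CD8 libraries and 3300 to 6538, 2635 to 3738, 1470 to 3768 and 1285 to 3576 reads in CD4 libraries. Their parent genes ran the other way, as Rpl15 had 9255 to 13141 reads in CD4 and 17831 to 24243 in CD8 libraries. Reads can match both copies, so how they were split is uncertain. The fragment length that Salmon's effective lengths imply also went with cell type, with a median of 254 bases (239 to 265) in CD4 and 297 (297 to 299) in CD8 libraries, and its part was not tested. Exosc6, an exosome subunit with 0 reads in CD4 and 146 to 229 in CD8 libraries, lies inside Aars on chromosome 8 and carries the same doubt.

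Among the largest differences toward CD8 cells, Crhbp, which binds corticotropin-releasing hormone, stood at 21.8, 25.6 and 17.2 CPM in CD8 and 0.0538 to 0.479 CPM (median 0.323) in CD4 libraries (log2 -6.14 ± 0.33, edgeR adjusted p = 3.53e-06). Control CD8 libraries held only 0 to 0.570 CPM of it. The interaction of genotype and cell type, given below, did not pass for Crhbp (-2.35 ± 2.12, edgeR adjusted p = 0.609). Slc22a3, an organic cation transporter, was at 9.41, 11.6 and 9.45 against 0.0983 to 0.532 CPM (log2 -4.91 ± 0.40), and Dmrta1 at 7.66, 7.60 and 7.54 against 0 to 0.484 CPM (log2 -5.62 ± 0.55). For all 3 the CD8 libraries were close to one another and far above CD4. Wdr95, the receptor genes Klra6 and Klrb1a and the pseudogene Klra13-ps completed this set, with log2 values of -5.07, -4.86, -4.89 and -5.96. The Klra genes are close copies of one another, which makes the split of their reads uncertain.

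Transcripts used as markers of other cell types were not equal in the 2 groups. Erythroid markers summed to 6754 to 39788 CPM (median 13677) in CD4 and 436 to 679 CPM in CD8 libraries, and monocyte and macrophage markers to 686 to 2961 CPM (median 913) against 335 to 482 CPM. The plot of summed marker levels shows that the CD4 and CD8 libraries did not overlap for B cell, macrophage, erythroid, NK cell, platelet, stroma and immediate early genes, and overlapped for plasma cell, dendritic cell, neutrophil, gamma-delta T cell, NKT and MAIT cell and mitochondrial genes. CD4 replicate 1 was the highest of the CD4 libraries for B cell, plasma cell, macrophage, dendritic cell and neutrophil markers. It was also the highest of them for NK cell, gamma-delta T cell and NKT and MAIT cell markers. With the context and immunoglobulin genes left out of the scaling, 3038 genes were higher in CD4 and 2729 higher in CD8 cells.

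**Figure D3:**
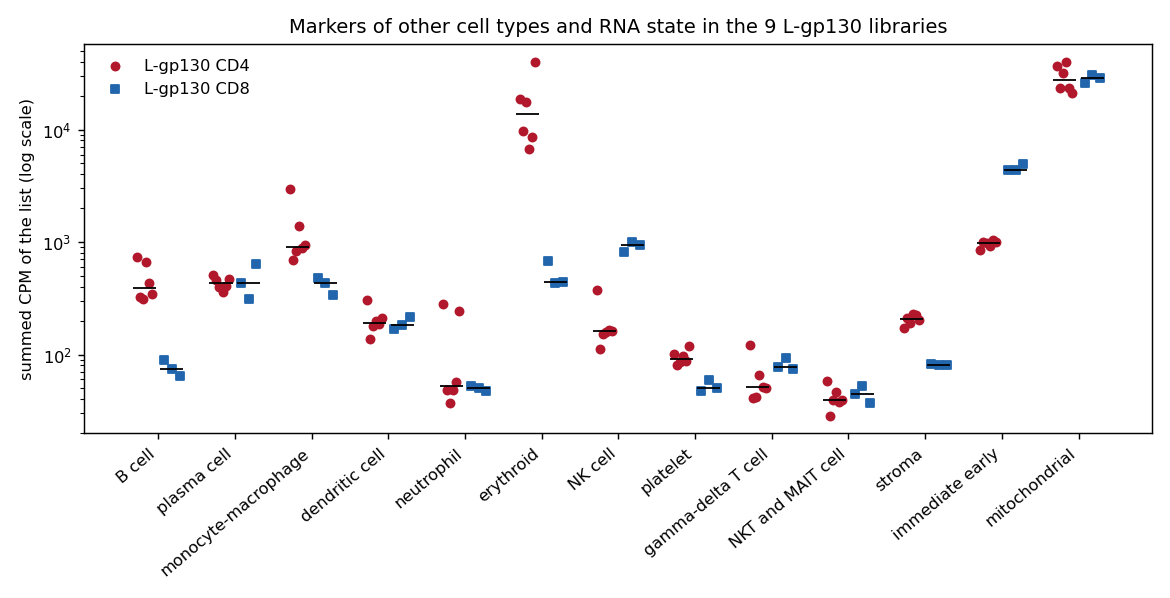
Summed CPM on a log scale (vertical axis) of marker lists of other cell types and RNA states in the 6 L-gp130 CD4 libraries (red circles) and the 3 L-gp130 CD8 libraries (blue squares); black lines are medians. Erythroid markers reach 39788 CPM in CD4 against at most 679 in CD8 libraries, and immediate early genes stand at 842 to 1053 against 4342 to 4938.

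To ask which lineage differences hold under active gp130, the same contrast was fitted in the 12 control libraries, which share no library with the 9. There, 7662 of 14660 genes (52.3%) passed. Of 1846 genes at least 2-fold higher in control CD4 cells and tested in both genotypes, 1413 (76.5%) were also called higher in CD4 cells under active gp130, 6 were called the opposite way and 427 were not called. Of 532 genes at least 2-fold higher in control CD8 cells, 419 (78.8%) were called the same way, 2 the opposite way and 111 not. The other direction again took only genes tested in both genotypes. There, 1432 of 1528 genes at least 2-fold higher in L-gp130 CD4 cells (93.7%) were called the same way in controls. So were 480 of 618 genes at least 2-fold higher in L-gp130 CD8 cells (77.7%). Some of the 2404 called genes at least 2-fold apart, such as Crhbp, were not tested in controls and are outside these shares. The control fit had more libraries and deeper CD4 libraries than the L-gp130 fit, and a gene not called in 1 genotype is not thereby shown to differ between them.

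The difference between the genotypes was tested directly as the interaction of genotype and cell type over all 21 libraries. It called 545 of 15758 genes (3.46%), of which 208 had fold changes of opposite sign in the 2 genotypes, 157 a larger and 180 a smaller difference of the same sign under active gp130. This count moved with single libraries and with the control CD8 split. It was 984 without L-gp130 CD4 replicate 1, 363 without CD4 replicate 6, 236 without L-gp130 CD8 replicate 1 and 328 without CD8 replicate 2. With control CD8 replicates 1 to 3 alone it was 314, and with replicates 4 to 6 alone 838. All 545 genes remained called without CD4 replicate 1, and 223 of them (40.9%) without CD8 replicate 1. By list, it called 7 of 24 helper effector, 7 of 14 costimulatory, 6 of 14 regulatory, 5 of 14 follicular helper, 5 of 20 homing, 4 of 23 T cell receptor, 3 of 20 coreceptor, 3 of 28 gp130-STAT3, 3 of 14 inhibitory, 2 of 30 cytotoxic, 1 of 20 naive and memory and 0 of 25 cell cycle genes.

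**Figure D4:**
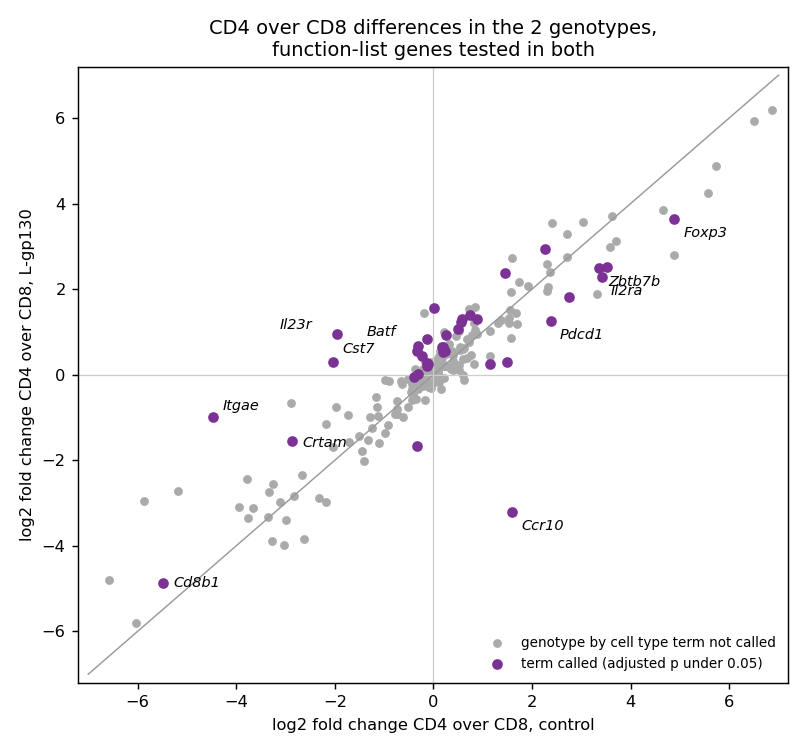
Log2 fold change of CD4 over CD8 in controls (horizontal axis) and in L-gp130 mice (vertical axis) for function-list genes tested in both, with the line of equal values; purple points passed edgeR's interaction test and gray points did not. Most genes lie near the line, Itgae and Cst7 lie above it at -4.46 and -2.04 in controls against -0.998 and 0.30 under active gp130, and Ccr10 lies below it.

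For the markers, the control log2 fold changes were 6.51 for Cd4, 3.36 for Zbtb7b, -6.58 for Cd8a and -5.49 for Cd8b1. Zbtb7b had the smaller difference under active gp130 (interaction -0.74 ± 0.17, edgeR adjusted p = 0.0167), with control means of 246 ± 19.1 CPM in CD4 and 25.8 ± 4.79 in CD8 cells (SD, n = 6 each). The call was lost without L-gp130 CD8 replicate 2 (edgeR adjusted p = 0.0526). Cd8b1 passed narrowly (0.67 ± 0.18, edgeR adjusted p = 0.0463) and in 11 of 28 alternatives, while Cd8a (1.79, edgeR adjusted p = 0.0742) and Cd4 (-0.49, edgeR adjusted p = 0.58) did not pass. Cd8a was called in 5 of 28 alternatives. Cd4 was called in 1 of 28, with control CD8 replicates 4 to 6 alone (-1.51, edgeR adjusted p = 0.000135), against 0.06 (edgeR adjusted p = 0.906) with replicates 1 to 3 alone.

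In 30 genes the 2 genotypes were called in opposite directions, and the interaction called all 30. It uses the same libraries as the 2 opposite calls, which make its call near certain, so it is no separate support. Batf (ENSMUSG00000034266, chromosome 12, 85686669 to 85709087), an AP-1 partner factor needed by TH17 and follicular helper cells, stood at 59.6 to 74.8 CPM (median 72.7) in L-gp130 CD4 and 41.9, 46.3 and 44.2 CPM in L-gp130 CD8 libraries. In controls it stood at 22.1 to 26.0 CPM in CD4 and 27.0 to 33.9 CPM in CD8 libraries. CD4 was thus the higher group under active gp130 (log2 0.66 ± 0.09) and the lower one in controls (-0.32), without overlap in either, and the interaction was 1.02 ± 0.10 (edgeR adjusted p = 3.32e-06). Tspan5, a tetraspanin, followed the same order, at 45.3 to 61.8 against 28.3 to 34.2 CPM under active gp130 and 21.95 to 24.7 against 27.5 to 33.1 CPM in controls (interaction 1.17 ± 0.12, edgeR adjusted p = 7.85e-06).

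The CD8 bias of Itgae was smaller under active gp130, and for Cst7 CD4 was called higher, by a small margin. Cst7, which encodes cystatin F, an inhibitor of the proteases that activate granzymes, stood at 75.4 to 88.7 CPM (median 81.3) in L-gp130 CD4 and 59.2, 77.4 and 60.4 CPM in L-gp130 CD8 libraries. In controls it stood at 13.5 to 19.2 CPM in CD4 and 61.0 to 71.1 CPM in CD8 libraries. The 2 L-gp130 groups overlapped, and the call between them (log2 0.30 ± 0.10, edgeR adjusted p = 0.0353) was lost in 7 of 20 alternatives. The control groups were far apart (-2.04), and the interaction was 2.35 ± 0.14 (edgeR adjusted p = 4.42e-09), called in all 28 alternatives.

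Itgae, the chain of the integrin that holds T cells in epithelia, stood at 33.5 to 63.5 CPM (median 46.8) in L-gp130 CD4 and 92.3, 79.0 and 112 CPM in L-gp130 CD8 libraries. In controls it stood at 6.53 to 9.44 CPM in CD4 and 162 to 218 CPM in CD8 libraries. CD8 libraries were higher in both genotypes, with log2 fold changes of -0.998 ± 0.21 under active gp130 and -4.46 in controls. The interaction was 3.57 ± 0.26 (edgeR adjusted p = 3.51e-07) and was called in all 28 alternatives. Crtam, an adhesion receptor of activated cytotoxic cells, moved the same way with less difference (log2 -1.55 and -2.87, interaction 1.36 ± 0.17, edgeR adjusted p = 7.89e-05).

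In Nacc2, Htra3 and Pou6f1 the difference lay further toward CD8 than in controls, and in Hpcal1 further toward CD4. Nacc2, a transcriptional repressor, stood at 11.1 to 13.4 CPM in L-gp130 CD4 and 16.4, 20.6 and 22.9 CPM in L-gp130 CD8 libraries, against 19.5 to 27.9 and 13.6 to 15.6 CPM in controls (interaction -1.39 ± 0.15, edgeR adjusted p = 1.15e-05). Htra3, a serine protease, stood at 0.336 to 0.958 CPM in L-gp130 CD4 and 7.77, 6.79 and 7.42 CPM in L-gp130 CD8 libraries, against 0.536 to 0.892 and 0.0565 to 0.456 CPM in controls (interaction -5.51 ± 0.49, edgeR adjusted p = 2.25e-06). The L-gp130 CD8 libraries stood alone at the higher level. Pou6f1, a POU domain factor, was higher in CD8 cells of both genotypes, by log2 -1.39 ± 0.07 under active gp130 and -0.54 in controls (interaction -0.83 ± 0.08, edgeR adjusted p = 5.42e-06). Hpcal1, a calcium sensor, was higher in control CD8 cells (log2 -0.72) and had a log2 fold change of -0.02 ± 0.06 under active gp130 (interaction 0.79 ± 0.07, edgeR adjusted p = 2.56e-06).

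Itgb3, an integrin chain of platelets that T cells also make, had a smaller CD4 bias under active gp130, at 52.3 to 64.7 CPM in CD4 and 28.01 to 31.99 CPM in CD8 libraries. In controls it stood at 183 to 212 and 32.2 to 46.6 CPM (log2 0.98 and 2.43, interaction -1.38 ± 0.13, edgeR adjusted p = 2.56e-06). Platelet markers as a list summed to 80.8 to 119 CPM in L-gp130 CD4 and 206 to 240.1 CPM in control CD4 libraries. Itgb3 is itself on that list and made up most of these sums, averaging 198.8 CPM in control CD4 and 59.5 CPM in L-gp130 CD4 libraries. The sum thus fell with Itgb3, while Ppbp and Itga2b, the next highest members, had higher means under active gp130. They averaged 6.49 and 7.67 CPM in control CD4 and 11.4 and 12.6 CPM in L-gp130 CD4 libraries. Values of the other members are not reported here, and the part of platelets was not tested. Ccr10, a skin homing receptor, and Cntnap1, a contactin-associated protein, were both higher in L-gp130 CD8 cells (log2 -3.21 and -3.30) with interactions of -4.63 and -3.70. Ccr10 (chromosome 11, 101172997 to 101175443) lies inside Cntnap1 (101170523 to 101190724). The reads carry no strand, so which of the 2 genes they came from is uncertain.

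**Figure D5:**
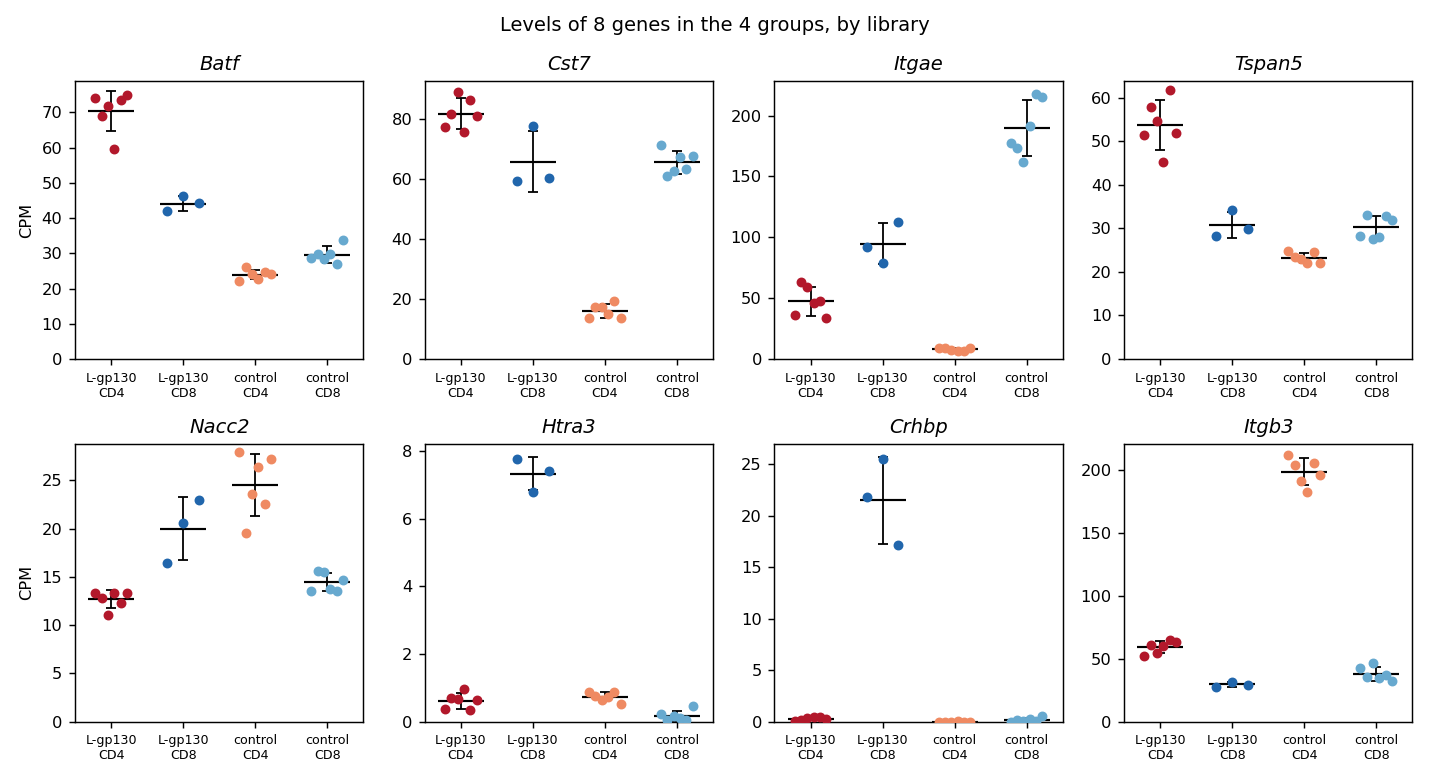
CPM (vertical axis, linear from 0) of Batf, Cst7, Itgae, Tspan5, Nacc2, Htra3, Crhbp and Itgb3 in L-gp130 CD4 (6 libraries), L-gp130 CD8 (3), control CD4 (6) and control CD8 (6), 1 point per library; horizontal lines are means and error bars SD. Batf and Tspan5 change which lineage is higher between the genotypes, and Cst7 and Itgae are lowest in control CD4. Htra3 and Crhbp are high in L-gp130 CD8 libraries alone, though the interaction test did not call Crhbp.

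Among the helper and regulatory genes, part of the CD4 bias differed by genotype. Foxp3 (log2 3.65 and 4.88, interaction -1.14 ± 0.30, edgeR adjusted p = 0.0415), Il2ra (2.29 and 3.42, -1.08 ± 0.22, adjusted p = 0.00863) and Ccr4 (2.52 and 3.51, -0.98 ± 0.22, adjusted p = 0.0134) had a smaller bias under active gp130. Cxcr5 (2.37 and 1.46, 1.02 ± 0.25, edgeR adjusted p = 0.0306), Izumo1r (2.95 and 2.27, 0.79 ± 0.21, adjusted p = 0.0361) and Icos (1.31 and 0.88, 0.44 ± 0.12, adjusted p = 0.0492) had a larger one. Il2ra kept its call in all 28 alternatives and Ccr4 in 27, while Cxcr5 kept it in 21, Foxp3 and Izumo1r in 12 each and Icos in 7.

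The inhibitory receptors Lag3 and Pdcd1 had a smaller CD4 bias than in controls. Lag3, a receptor for MHC class II, stood at 78.5 to 96.0 CPM in L-gp130 CD4 and 67.7, 70.0 and 73.8 CPM in L-gp130 CD8 libraries, against 16.004 to 21.9 and 4.73 to 8.35 CPM in controls. CD4 libraries were above CD8 libraries in both genotypes (log2 0.29 and 1.49, interaction -1.20 ± 0.18, edgeR adjusted p = 0.000555). Pdcd1 stood at 69.2 to 100.1 CPM in L-gp130 CD4 and 29.5, 35.6 and 40.3 CPM in L-gp130 CD8 libraries, against 16.9 to 24.04 and 2.76 to 5.33 CPM in controls (log2 1.25 and 2.38, interaction -1.05 ± 0.21, edgeR adjusted p = 0.00848).

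Several TH17 and costimulatory genes had a difference that lay further toward CD4 than in controls. Il1r1 had a log2 fold change of 1.56 under active gp130 and 0.00 in controls (interaction 1.72 ± 0.40, edgeR adjusted p = 0.021), with control means of 3.74 and 3.37 CPM. Il23r, the interleukin-23 receptor, stood at 1.17 to 3.17 against 0.581 to 1.495 CPM under active gp130 and 0.279 to 0.614 against 0.953 to 2.06 CPM in controls (interaction 2.97 ± 0.48, edgeR adjusted p = 0.00106). Tnfsf14, which encodes LIGHT (log2 0.55 and -0.32, interaction 0.91 ± 0.13, edgeR adjusted p = 0.000435), and Sh2d1a, the SLAM adaptor SAP (0.44 and -0.23, 0.76 ± 0.10, adjusted p = 0.000203), changed sign. Tnfrsf18 (1.07 and 0.49, 0.67 ± 0.10, edgeR adjusted p = 0.000804) had a larger CD4 bias.

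In the gp130 pathway, Hif1a (log2 1.24 and 0.56, interaction 0.75 ± 0.11, edgeR adjusted p = 0.000654), Ptpn11 (0.92 and 0.26, 0.79 ± 0.12, adjusted p = 0.000555) and Jak2 (0.54 and 0.20, 0.42 ± 0.09, adjusted p = 0.0128) had a larger CD4 bias under active gp130. The interaction did not pass for Il6st (0.19, edgeR adjusted p = 0.701), Stat3 (0.08, adjusted p = 0.693) or Socs3 (-0.32, adjusted p = 0.367). Il7r had a larger CD8 bias (log2 -1.67 and -0.33, interaction -1.18 ± 0.29, edgeR adjusted p = 0.028), called in 22 of 28 alternatives. The transcripts of Fos and Junb, which differed between the control CD8 sets, did not pass it either (0.25 and 0.70, edgeR adjusted p = 0.859 and 0.335). Junb passed with control CD8 replicates 1 to 3 alone (1.15, edgeR adjusted p = 0.000226) and stood at -0.03 (edgeR adjusted p = 0.928) with replicates 4 to 6 alone, while Fos passed in 0 of 28 alternatives.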

How the data were processed

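RNA of splenic CD4+ and CD8+ T cells was sequenced as unstranded paired-end poly(A) libraries, per the labels' protocols. The submitters' processing notes name cutadapt 3.4, Trimmomatic 0.39, Salmon 1.5.2, edgeR 3.34.1 and GRCm38, with no role or order. The deposited files give for each transcript an estimated count, which the authors obtained with Salmon, per the file headers. They also give TPM, deposited by the authors, which was used here only for levels per length and transcript shares.

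Estimated counts were summed per gene and rounded, and 0.161% to 0.209% of the reads in the 9 libraries lay on 694 transcripts with no gene match and were left out. Main fits used edgeR 4.0.16 (R 4.3.3) with filterByExpr, TMM factors, the robust quasi-likelihood test, sex as a covariate and Benjamini-Hochberg adjustment, with calls at an adjusted p under 0.05. The contrast was fitted in the 9 L-gp130 libraries, again in the 12 controls, and as a genotype by cell type interaction in all 21. CPM used TMM factors over all 21. DESeq2 1.42.0, limma 3.58.1, other scalings and filters, males alone, a block on replicate number and fits without each library were alternatives. The fits were tested on simulated data. Transcript shares were compared by exact permutation tests (scipy 1.17.1). Intervals and floors of 3 reads cover counting error only.

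Named genes were the markers with Il6st, Stat3 and Socs3, up to 3 called members per list and direction by adjusted p, the 10 largest changes in each direction that averaged 1 or more log2 CPM without overlap of the groups, the 8 smallest interaction p, 6 genes called in opposite directions, and up to 3 members per context list. The rules on the largest changes and on the interaction skipped predicted gene models, antigen receptor segments, sex-linked genes and context genes. Members and lists were chosen with earlier results of these data known. Values of some list members are not reported here.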

Additional observations from a re-analysis of the deposited data

Results flagged for a closer look

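In 111 named genes the 6 L-gp130 CD4 libraries were searched for 1 library apart from the rest, which chance gives in about 1 of 20 groups. Such a library was found in 20 genes. It was replicate 1 in 13 of them, high in 9 and low in 4. Replicate 1 was low for Cd4 (520.01 CPM, others 723 to 785), Il6st (139.8, others 278 to 334), Nr4a1 (66.4, others 87.7 to 98.7) and Izumo1r (176, others 286 to 316). It was high for Cd8a (92.3 CPM, others 14.3 to 28.7), Nkg7 (197, others 44.2 to 70.7), Klra13-ps (2.74, others 0.197 to 0.585), Wdr95 (0.699, others 0.0508 to 0.242), Tcrg-C1 (17.4, others 4.37 to 7.45) and Tcrg-C2 (38.01, others 6.29 to 12.7). The myeloid genes Lyz2 (936 CPM, others 196 to 292) and Csf3r (50.9, others 6.33 to 14.4) and the plasma cell gene Txndc5 (115, others 83.5 to 91.5) were high there too.

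Other libraries stood apart in 7 genes. Replicate 2 was high for Il7r (350.4 CPM, others 138 to 204). Replicate 4 was high for Efhd1 (10.3, others 3.71 to 5.57) and Tcim (9.20, others 3.23 to 5.28) and low for Hpcal1 (91.9, others 99.7 to 104). Replicate 6 was high for Ccr9 (12.6, others 7.67 to 9.25) and for the haemoglobin genes Hbb-bs (13945, others 2758 to 6694) and Hba-a2 (9681, others 1755 to 4453), near-identical copies of which share reads.

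The interaction test called 545 of all 15758 genes (3.46%) and 26 of the 112 named genes. The rules on the smallest interaction p and on opposite directions picked named genes by this same test, so the 26 cannot be read against that share. In these 26 genes the CD4 minus CD8 difference departed from that in controls. It lay further toward CD4 under active gp130 in Itgae (3.57 on the log2 scale), Cst7 (2.35), Tspan5 (1.17), Batf (1.02), Cxcr5 (1.02), Izumo1r (0.79), Hpcal1 (0.79), Hif1a (0.75), Tnfrsf18 (0.67), Cd8b1 (0.67), Icos (0.44) and Lcp2 (0.38). It lay further toward CD8 in Htra3 (-5.51), Ccr10 (-4.63), Cntnap1 (-3.70), Nacc2 (-1.39), Itgb3 (-1.38), Il7r (-1.18), Il2ra (-1.08), Ccr4 (-0.98), Pou6f1 (-0.83) and Zbtb7b (-0.74). Markers of other cells were among them, with Cdh5 of endothelium (-1.82), Cd22 of B cells (-1.62), Trav11, a T cell receptor segment of NKT cells (-1.56), and Itgax of dendritic cells (-1.08).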

How the results depend on the processing

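Mouse numbers did not pair the libraries. Same-numbered CD4 and CD8 libraries of L-gp130 mice correlated at 0.117, -0.030 and -0.086, and the labelled sex matched for number 1 alone. A fit with the replicate block on replicates 1 to 3 called 3643 genes, 2050 higher in CD4 and 1593 higher in CD8. The same 6 libraries without the block gave 4166. Males alone gave 3538 genes, 2035 higher in CD4 and 1503 higher in CD8. Leaving out each library in turn gave 2127 to 3397 genes higher in CD4, 1747 to 3361 higher in CD8 and 236 to 984 interaction genes. DESeq2 called 955 interaction genes. Chosen after seeing the data, leaving out L-gp130 CD4 replicate 1 and control CD4 replicate 5 gave 888, control CD8 replicates 1 to 3 alone 314 and replicates 4 to 6 alone 838. Hpcal1, not called, changed sign in the block fit (0.039) and in males (0.0057), and ranged from -0.038 to 0.020 with single libraries left out. The cause was not tested. The median log2 fold change of all genes was -0.005 with TMM and 0.016 with RLE factors, and 50.15% and 53.16% of called genes were higher in CD4. Of 98 named genes, calls were lost for Stat3, Igfbp4 and Tcrg-C1 in 9 alternatives each, S100a8 in 8, Cst7 in 7, S100a9 in 4, Csf1r, Txndc5 and Il17a in 3 each, Vsir in 2, and Socs3 and Nacc2 in 1 each. At 3 CD8 libraries, genes near 1 CPM rest on few reads.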
